A study of Mus musculus with 27 samples.

Results

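The cell cycle leaves G1 under the control of a small circuit, and 10 of its genes were followed here through the reprogramming of mouse fibroblasts: the Ink4/Arf inhibitors Cdkn2a and Cdkn2b, the p53 arm Trp53, Mdm2 and Cdkn1a, the cyclins Ccnd1, Ccnd2, Ccnd3 and Ccne1, and the retinoblastoma gene Rb1. The genes were taken by symbol, and all 10 were found among the 20156 RefSeq genes of the expression tables. Each was described by its RNA level and by the sequenced reads of nucleosomes carrying H3, H3K4me3, H3K27me3 or H3K9me3 within 1000 bp of its listed start site.

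The samples were mouse embryonic fibroblasts (MEFs), pre-iPSCs, which are stable clones halted partway through reprogramming, and induced pluripotent stem cells (iPSCs), with 2 libraries of each for RNA, H3, H3K4me3 and H3K27me3 and 1 of each for H3K9me3. MEFs came from e13.5 embryos, hemizygous for an Oct4-GFP transgene and a Rosa26 allele, on a background given as CBA/CaJ and C57BL/6J, with 129Sv/Jae mothers by the study's methods, and had at most 3 passages before RNA-seq. The pre-iPSCs and iPSCs were made from such MEFs with retroviruses of the Yamanaka factors, had 6 passages before RNA-seq and grew in serum with LIF on MEF feeder layers, inactivated with mitomycin C per the labels for iPSCs. The same transgene and allele are thus shared by all groups. By the study's methods, the pre-iPSCs were 2 clones and the iPSCs were those that correspond to them. Libraries of these 2 cell types may therefore share a clone and are not fully independent. The sources used here do not say which clone a library came from, and p-values measure only the spread between these libraries.

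Most markers went with the labels of the cells, though not all. Summed over 8 fibroblast genes, the level was 4320 and 4238 FPKM (fragments per kilobase of transcript, scaled to the size of the library) in MEFs, against 296 and 93.9 in pre-iPSCs, and iPSCs had 210 and 246, so iPSC cultures held on average 5.33% of the MEF level. All 8 were above 0 in every library, and 7 were lower in each reprogrammed library than in both MEF libraries, while Lum, at 0.348 and 5.84 FPKM in MEFs, was not. Col1a1 and Col1a2 made up most of the sum in MEFs, and the share kept in iPSCs differed between the markers. Nanog was listed at 0 in both MEF libraries, at 0.519 and 0 FPKM in pre-iPSCs and at 49.5 and 73.6 in iPSCs. Pou5f1 was at 378 and 3184 FPKM in pre-iPSCs and at 586 and 397 in iPSCs. Sox2 went the other way from Nanog, with 272 and 171 FPKM in pre-iPSCs and 65.7 and 116 in iPSCs. For both Pou5f1 and Sox2, viral transcripts cannot be told apart from the endogenous gene. Of 3 blood and endothelial markers, Ptprc was at 0.240 FPKM or less in every library, Cd68 at 2.12 to 10.1 FPKM, and Pecam1 was listed at 0 in both MEF libraries and was at 15.9 and 12.7 FPKM in iPSCs. Their sum was 4.38 and 2.26 FPKM in MEFs, against 5.24 and 12.1 in pre-iPSCs, and iPSCs had 21.4 and 17.9. In iPSCs most of the sum was Pecam1, with Cd68 at 5.48 and 5.12 FPKM, so the high iPSC sum followed a single gene. The part of these markers in the results was not tested. Reads in nucleosome calls, per library, numbered 67362868 to 108211816 for H3, 12007350 to 13146349 for H3K4me3, 13224775 to 15222040 for H3K27me3 and 12222861 to 12942154 for H3K9me3, while the RNA depth is unknown from FPKM values. In bulk cultures, fewer expressing cells and less RNA per cell cannot be told apart.

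As background, D-type cyclins activate CDK4 and CDK6 in response to growth signals, and cyclin E activates CDK2. Both kinases phosphorylate RB1, which then releases E2F factors to switch on genes of DNA synthesis. The Ink4 proteins p16Ink4a (from Cdkn2a) and p15Ink4b (from Cdkn2b) inhibit CDK4 and CDK6, and p21 (from Cdkn1a) inhibits CDK2. Cdkn2a also encodes p19Arf from its own start site, which blocks MDM2, the ubiquitin ligase that degrades p53, and p53 in turn activates Cdkn1a and Mdm2. Fibroblasts in culture use this circuit to enter senescence, it is known as a barrier to reprogramming, and pluripotent stem cells cycle with a short G1 phase. Polycomb complexes, which deposit H3K27me3, hold the Ink4/Arf locus silent in many young cells.

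Start sites matter at this set of genes, and the promoters on which the chromatin results turn are shown first, each as the 250 bases ahead of the start site in mm9, 5′ to 3′ on the gene's strand, with CpG in capitals. Those of Cdkn2b, of the p19Arf and p16Ink4a starts of Cdkn2a and of Ccnd2 bear on H3K27me3, and that of the upstream Cdkn1a start on H3K4me3.
Cdkn2b, chr4:88956942-88957191, minus strand: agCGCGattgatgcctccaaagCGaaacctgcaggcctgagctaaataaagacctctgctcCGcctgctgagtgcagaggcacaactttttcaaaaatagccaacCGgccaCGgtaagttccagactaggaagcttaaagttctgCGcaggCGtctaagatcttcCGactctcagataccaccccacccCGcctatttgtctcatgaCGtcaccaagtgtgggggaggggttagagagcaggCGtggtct
Cdkn2a, p19Arf start, chr4:88940524-88940773, minus strand: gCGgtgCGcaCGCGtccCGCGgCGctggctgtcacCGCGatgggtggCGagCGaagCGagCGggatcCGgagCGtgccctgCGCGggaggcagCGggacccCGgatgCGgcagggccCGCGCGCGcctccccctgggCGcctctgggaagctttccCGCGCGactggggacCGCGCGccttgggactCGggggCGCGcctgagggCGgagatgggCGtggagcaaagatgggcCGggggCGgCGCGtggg
Cdkn2a, p16Ink4a start, chr4:88928097-88928346, minus strand: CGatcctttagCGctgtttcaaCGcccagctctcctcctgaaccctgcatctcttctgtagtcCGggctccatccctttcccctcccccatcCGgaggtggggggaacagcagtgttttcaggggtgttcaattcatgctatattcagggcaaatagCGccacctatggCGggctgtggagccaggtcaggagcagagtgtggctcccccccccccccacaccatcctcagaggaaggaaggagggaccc
Ccnd2, chr6:127101067-127101316, minus strand: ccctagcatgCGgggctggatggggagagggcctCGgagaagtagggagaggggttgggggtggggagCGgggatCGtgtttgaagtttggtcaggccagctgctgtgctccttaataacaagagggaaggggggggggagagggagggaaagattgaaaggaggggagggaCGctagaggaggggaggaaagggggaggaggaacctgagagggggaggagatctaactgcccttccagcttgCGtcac
Cdkn1a, upstream start, chr17:29227681-29227930, plus strand: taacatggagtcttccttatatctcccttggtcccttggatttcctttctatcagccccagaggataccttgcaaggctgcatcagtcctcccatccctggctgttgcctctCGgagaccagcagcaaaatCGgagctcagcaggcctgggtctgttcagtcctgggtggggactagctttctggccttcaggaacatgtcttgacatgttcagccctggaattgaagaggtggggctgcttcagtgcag

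These promoters differ in CpG content. Within 500 bp on each side of the start site the p19Arf start held 107 CpG and Cdkn2b 63, beside a median of 47 over all 20156 start sites. Ccnd2 held 40, the p16Ink4a start 37 and the upstream Cdkn1a start 7, while Rb1 held 154 and Ccne1 124. The p53 response element was searched as its consensus decamer pair with no spacer, within 3000 bp of a start, requiring both core tetramers and allowing at most 1 mismatch outside them. The consensus reads the same on both strands. It was found at 0.744% of all start sites and, among the 10 genes, near Cdkn1a and Cdkn2b. The Cdkn1a element begins at -58 bp from the upstream start and at -2844 bp from the second start, and is shown with the core tetramers in capitals, as is that of Cdkn2b, 2613 bp downstream of its start.
Cdkn1a element, chr17:29227873-29227892, plus strand: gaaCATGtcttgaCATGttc
Cdkn2b element, chr4:88954309-88954328, minus strand: agaCATGtccggtCTTGctc
An E2F motif (TTTCGCGC, TTTGGCGC, TTTCCCGC or TTTGGCGG, on either strand) was present in the 250-base promoters of the p19Arf start and of Rb1, and in 2.54% of all such promoters. Matches are descriptions of the sequence and were not tested for binding.

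Of the 10 genes, 3 passed the expression test between pre-iPSCs and MEFs, 1 higher and 2 lower, beside 16.4% of the 12401 genes tested (7.39% higher and 9.0% lower). Between iPSCs and pre-iPSCs 1 of 10 passed, lower, beside 8.62% (3.91% higher and 4.71% lower). Between iPSCs and MEFs 3 of 10 passed, 1 higher and 2 lower, beside 25.9% (10.3% higher and 15.5% lower). The test was limma on log2(FPKM + 1), and passing needed both a Benjamini-Hochberg p under 0.05 and a 2-fold change. With so few genes these shares are near the background, and the results lie in which genes moved. The values of the 2 cell types did not overlap at 5, 8 and 7 of the 10 genes in these comparisons, beside 53.9%, 52.0% and 62.9% of all genes tested.

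**Figure D1:**
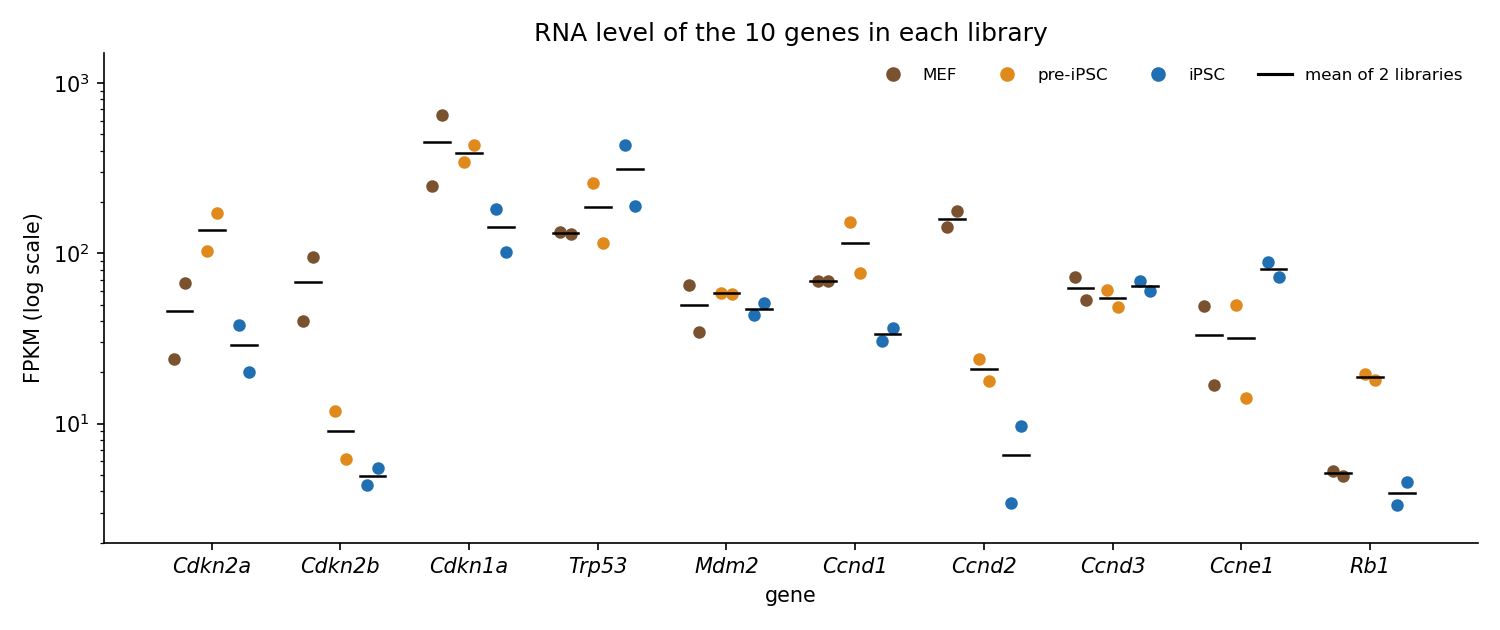
RNA level (FPKM, log axis) of the 10 genes in each of 6 libraries, coloured by cell type, with black bars at the mean of 2 libraries. Ccnd2 and Cdkn2b step down from MEFs to iPSCs, Rb1 and Cdkn2a are highest in pre-iPSCs, and Mdm2 and Ccnd3 stay within 34.5 to 72.5 FPKM.

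Cdkn2b, the p15Ink4b gene (NM_007670, chromosome 4, minus strand, start at 88956941), was at 40.2 and 95.0 FPKM in MEFs, while pre-iPSCs had 11.9 and 6.23 and iPSCs 4.33 and 5.47. Both reprogrammed cell types lay below both MEF libraries, and the iPSC values lay below those of pre-iPSCs. It fell by 2.70 on the log2 scale from MEFs to pre-iPSCs (SE 0.51, adjusted p = 0.012) and stood 3.42 lower in iPSCs than in MEFs, a log2 difference of -3.42 (SE 0.51, adjusted p = 0.0039), while the step from pre-iPSCs to iPSCs was -0.72 (SE 0.51, adjusted p = 0.49). Without pre-iPSC replicate 2 the pre-iPSC difference was -1.91 (adjusted p = 0.12), and without iPSC replicate 1 or 2 the iPSC difference was -3.38 or -3.46 (adjusted p = 0.052 or 0.056). The mean in iPSCs was 7.25% of that in MEFs, beside 5.33% for the fibroblast markers, and the part of fibroblast content in the difference was not tested.

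Cdkn2a lies next to it, 16418 bp further along the same strand (NM_009877, the p19Arf transcript, start at 88940523). Its level was 24.0 and 67.3 FPKM in MEFs, against 103 and 172 in pre-iPSCs, and iPSCs had 37.9 and 20.1. Both pre-iPSC libraries lay above all others, whereas MEFs and iPSCs overlapped. The gene did not pass the test in the main fit: pre-iPSCs differed from MEFs by 1.70 (SE 0.55, adjusted p = 0.081) and iPSCs from pre-iPSCs by -2.23 (SE 0.55, adjusted p = 0.052) on the log2 scale. These 2 differences sit at the threshold, since with quantile normalization they were 2.11 (adjusted p = 0.026) and -2.20 (adjusted p = 0.033). Without MEF replicate 1 or 2 the first was 0.94 (adjusted p = 0.17) or 2.46 (adjusted p = 4.2e-05), and iPSCs against MEFs passed without MEF replicate 1 (-1.29, adjusted p = 0.044). The p16Ink4a and p19Arf transcripts share exons, so one FPKM value cannot tell which of them was present.

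The neighbours thus differed in their ratio. Cdkn2a stood at 0.596 and 0.708 times Cdkn2b in the 2 MEF libraries, at 8.69 and 27.6 times in pre-iPSCs and at 8.74 and 3.68 times in iPSCs. The ranges of MEFs and of the other cell types did not overlap, and pre-iPSCs and iPSCs were not separated.

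At the Cdkn2b start site, H3K27me3 reads were 2 and 3 in MEFs, while pre-iPSCs had 5 and 6 and iPSCs 12 and 11. Cdkn2b was 1 of 2 genes of the set, of 5 with enough reads to be tested, that passed in edgeR's quasi-likelihood test between iPSCs and MEFs, both higher, beside 11.2% of the 10407 promoters tested (7.33% higher and 3.88% lower). Cdkn2b passed the filter on low counts through its iPSC reads, the group where it was high, so this share is partly set by the filter. With no such filter 2 of 10 genes passed, Cdkn2b and Ccnd2, beside 6.08% of 19833 promoters, and the Cdkn2b difference was 1.99 (SE 0.61, adjusted p = 0.032). With the filter the log2 difference of Cdkn2b was 2.15 (SE 0.67, adjusted p = 0.025). It rests on few reads: leaving out any 1 of the 6 libraries gave differences of 1.95 to 2.23 with adjusted p-values from 0.063 to 0.24, and within 5000 bp of the start the difference was 0.72 (adjusted p = 0.061). H3K4me3 reads there were 53 and 31 in MEFs, against 25 and 42 in pre-iPSCs, and iPSCs had 19 and 30, and no comparison passed, whereas within 5000 bp the iPSC level was lower than that of MEFs (log2 difference -0.61, SE 0.18, adjusted p = 0.012). Cdkn2a went the same way in that wider window (-0.62, SE 0.19, adjusted p = 0.016, around the p19Arf start, but -0.26, adjusted p = 0.37, around the p16Ink4a start), in which 27.3% of the 19610 promoters tested passed.

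At the p16Ink4a start of Cdkn2a (start at 88928096, transcript Cdkn2a-001, 12427 bp downstream of the p19Arf start), H3K27me3 reads within 1000 bp were 21 and 12 in MEFs, while pre-iPSCs had 8 and 7 and iPSCs 13 and 17. Pre-iPSCs were lowest, with a log2 difference from MEFs of -1.09 (SE 0.45, adjusted p = 0.13). In a window of 5000 bp on each side of this start, chosen after the data were seen, H3K27me3 was lower in pre-iPSCs than in MEFs (-1.22, SE 0.25, adjusted p = 0.0020) and in iPSCs than in MEFs (-0.69, SE 0.23, adjusted p = 0.037), beside 14.6% and 21.4% of the 19620 promoters tested at that width. Around the p19Arf start the pre-iPSC difference in the same width was -1.06 (SE 0.30, adjusted p = 0.019), and the iPSC difference was -0.31 (adjusted p = 0.43), so the iPSC call depended on the start used.

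Along the locus, H3K27me3 changed with distance from the p19Arf start. In the 25000 bp downstream of it, which hold the Cdkn2a gene, MEFs had 0.744 and 0.466 RPKM (reads per kilobase, scaled to the unique reads of the library), pre-iPSCs 0.223 and 0.249 and iPSCs 0.394 and 0.478. Both pre-iPSC libraries were below the other 4, and MEFs and iPSCs overlapped. In the 5000-bp window from 15000 bp downstream, MEFs had 77 and 76 reads, iPSCs 53 and 52 and pre-iPSCs 24 and 23. On the other side, the window from 20000 to 15000 bp upstream, which holds the Cdkn2b start, had 17 and 13 reads in MEFs, against 16 and 15 in pre-iPSCs, and iPSCs had 26 and 38. H3K9me3 over the same 25000 bp was 0.328 RPKM in the MEF library, 0.382 in that of pre-iPSCs and 0.326 in that of iPSCs. H3K27me3 was thus highest in both MEF libraries in the window from 15000 bp downstream and in both iPSC libraries in that of the Cdkn2b start.

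**Figure D2:**
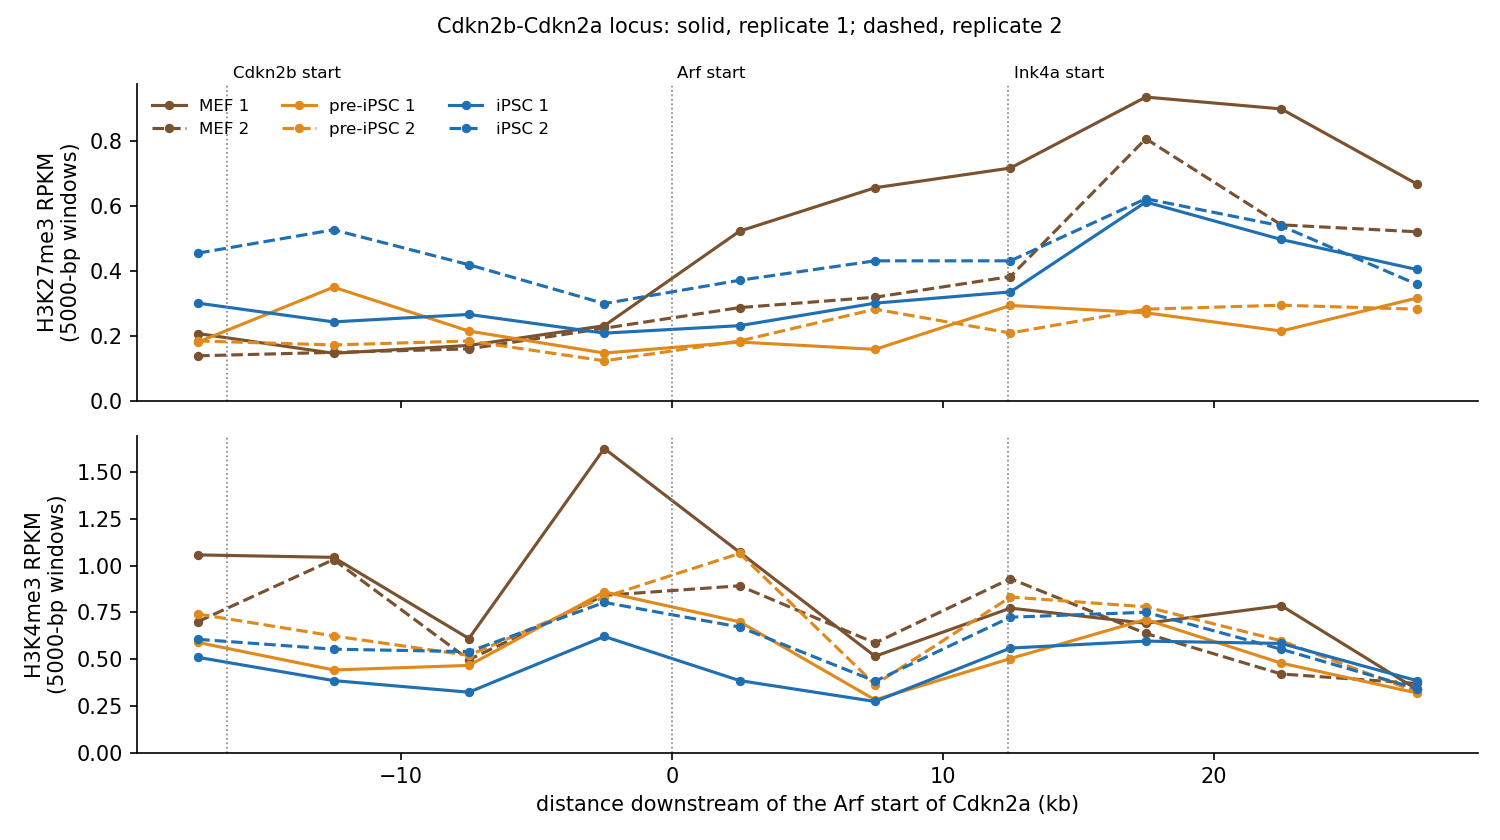
H3K27me3 (top) and H3K4me3 (bottom) in RPKM per 5000-bp window along the Cdkn2b-Cdkn2a locus, by distance downstream of the p19Arf start in kb, 1 line per library. Downstream of the p16Ink4a start both MEF lines lie above both pre-iPSC lines for H3K27me3, 77 and 76 reads against 24 and 23 at the highest window.

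Cdkn1a, the p21 gene (NM_001111099, chromosome 17, plus strand, start at 29227931), had the highest level of the set in MEFs and pre-iPSCs, at 249 and 652 FPKM in MEFs, while pre-iPSCs had 342 and 434 and iPSCs 182 and 101. The values placed it between the 97.4th and the 99.3rd percentile of all genes in every library. Both iPSC libraries lay below the others, and MEFs and pre-iPSCs overlapped. No comparison passed: the log2 difference was -1.56 between iPSCs and MEFs (SE 0.59, adjusted p = 0.094) and -1.50 between iPSCs and pre-iPSCs (SE 0.59, adjusted p = 0.20). The MEF libraries decide the first, which was -2.38 without MEF replicate 1 (adjusted p = 0.0021) and -0.74 without MEF replicate 2 (adjusted p = 0.35). With quantile normalization the second passed (-1.49, adjusted p = 0.046). Between pre-iPSCs and MEFs the difference was -0.06 and had no stable sign, with 0.68 under quantile normalization.

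The expression tables list an upstream start of Cdkn1a, and H3K4me3 was followed at it and at the second start 2786 bp downstream (start at 29230717, transcript Cdkn1a-001). At the upstream start H3K4me3 reads were 24 and 23 in MEFs, against 43 and 47 in pre-iPSCs, and iPSCs had 17 and 26. The pre-iPSC libraries stood apart, and Cdkn1a was the 1 gene of 10 to pass for H3K4me3 between pre-iPSCs and MEFs, higher, beside 3.85% of the 17700 promoters tested (3.05% higher and 0.797% lower). The log2 difference was 1.26 (SE 0.29, adjusted p = 0.0084), with 1.79 within 500 bp (SE 0.44, adjusted p = 0.012) and 0.25 within 5000 bp (SE 0.17, adjusted p = 0.32), where the call was lost. At the second start the reads were 73 and 63 in MEFs, while pre-iPSCs had 54 and 38 and iPSCs 52 and 46, and the difference was -0.25 (SE 0.24, adjusted p = 0.60), so the higher reads were not seen there. It was also lost without MEF replicate 1 (1.17, adjusted p = 0.13) or pre-iPSC replicate 2 (1.09, adjusted p = 0.12), with library sizes fixed at the unique reads (0.88, adjusted p = 0.075) and in DESeq2 (1.26, adjusted p = 0.32).

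No other mark passed at the upstream start with all libraries. H3K27me3 reads were 14 and 6 in MEFs, against 3 and 3 in pre-iPSCs, and iPSCs had 8 and 10 (pre-iPSCs against MEFs, log2 difference -1.66, SE 0.67, adjusted p = 0.12). The MEF libraries decide this value, which was -0.84 without MEF replicate 1 (adjusted p = 0.79) and -2.32 without MEF replicate 2 (adjusted p = 0.048), where it passed, and within 5000 bp it was 0.03. H3 reads were 57 and 57 in MEFs, while pre-iPSCs had 63 and 29 and iPSCs 145 and 62, against a median over all genes of 39 and 46, 143 and 37, and 102 and 44. With pre-iPSC replicate 2 left out Cdkn1a passed for H3 in both comparisons with pre-iPSCs, as did 4589 and 2146 promoters of the 19598 tested. H3K9me3 reads were 10, 1 and 9 in MEFs, pre-iPSCs and iPSCs, the last 2 with exact Poisson 95% intervals of 0.000790 to 0.174 RPKM and 0.136 to 0.566 RPKM around 0.0312 and 0.298. The p53 element printed above lies within this window.

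**Figure D3:**
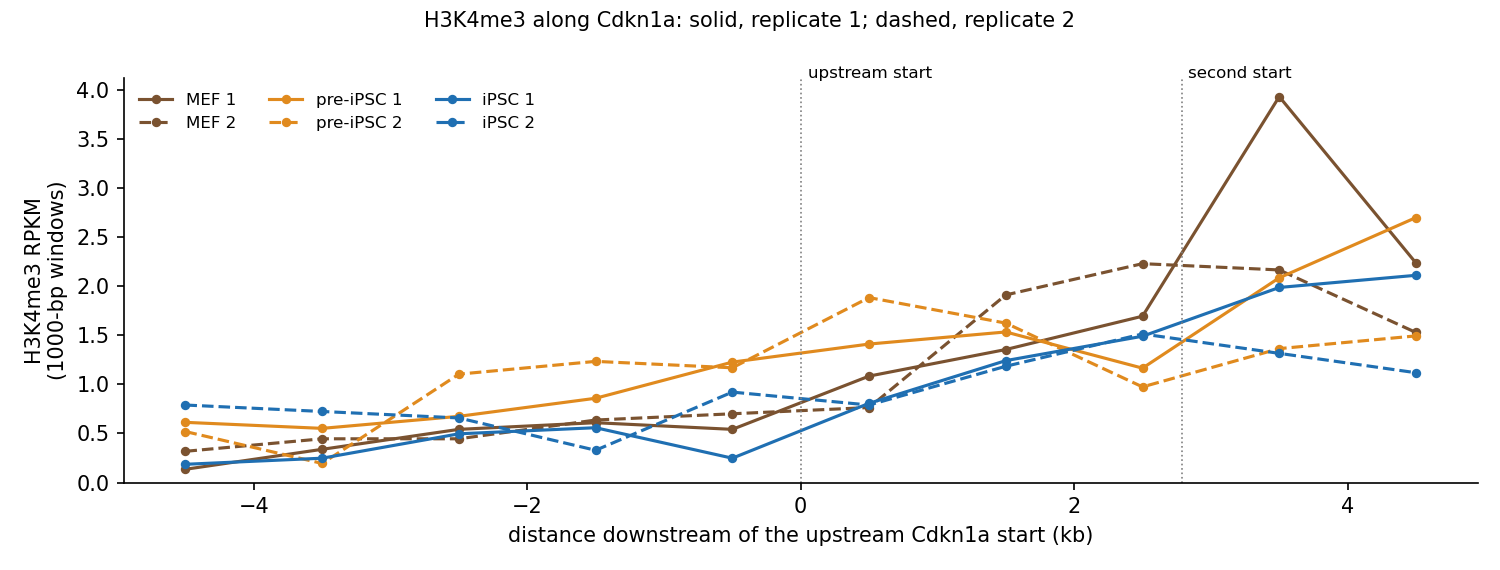
H3K4me3 in RPKM per 1000-bp window along Cdkn1a, by distance downstream of the upstream start in kb, 1 line per library. Both pre-iPSC lines lie above the other 4 in the windows next to the upstream start, where reads within 1000 bp were 43 and 47 against 17 to 26, and not at the second start.

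The RNA of Trp53 and Mdm2 showed no difference that passed with all libraries and the main scaling. Trp53, which encodes p53, was at 133 and 129 FPKM in MEFs, against 260 and 114 in pre-iPSCs, and iPSCs had 434 and 190. Both iPSC values lay above both MEF values, and the log2 difference was 1.12 (SE 0.46, adjusted p = 0.12), or 1.73 with quantile normalization (adjusted p = 0.011) and 1.69 without MEF replicate 2 (adjusted p = 0.012). Mdm2 was at 65.5 and 34.5 FPKM in MEFs, while pre-iPSCs had 58.7 and 58.0 and iPSCs 43.5 and 51.0, with overlapping values in MEFs and each other cell type. Its log2 difference between iPSCs and MEFs was -0.01 (SE 0.40), and its sign depended on the scaling (0.37 with quantile normalization). At the Trp53 start, H3K4me3 reads were 65 and 51 in MEFs, against 41 and 44 in pre-iPSCs, and iPSCs had 56 and 25. At Mdm2 they were 45 and 57, 42 and 31, and 36 and 31. Neither gene passed for H3K4me3 within 1000 bp. H3K27me3 reads at Trp53 were 0 and 2, 5 and 3, and 5 and 5, too few to be tested like those at Mdm2, and in the window of 5000 bp Trp53 was higher in pre-iPSCs than in MEFs (log2 difference 1.08, SE 0.36, adjusted p = 0.044).

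Of the D-type cyclins, Ccnd2 carried the largest difference of the set (NM_009829, chromosome 6, minus strand, start at 127101066). Its level was 143 and 177 FPKM in MEFs, while pre-iPSCs had 23.9 and 17.9 and iPSCs 3.39 and 9.73, so that the 3 cell types did not overlap. It fell by 2.88 on the log2 scale from MEFs to pre-iPSCs (SE 0.45, adjusted p = 0.0068) and differed by -4.54 between iPSCs and MEFs (SE 0.45, adjusted p = 0.0012). Both calls held in every alternative run, with differences between iPSCs and MEFs of -3.87 to -5.21. The step from pre-iPSCs to iPSCs was -1.66 (SE 0.45, adjusted p = 0.071). The iPSC mean was 4.11% of the MEF mean, beside 5.33% for the sum of the fibroblast markers, which differed among themselves. The part of fibroblast content in the iPSC level was not tested.

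H3K27me3 at the Ccnd2 start went in the opposite direction. Reads within 1000 bp were 6 and 4 in MEFs, against 9 and 14 in pre-iPSCs, and iPSCs had 33 and 26, equal to 0.182 and 0.106, 0.253 and 0.428, and 0.951 and 0.776 RPKM. The order of the cell types was that of RNA turned round, with no overlap between them. The log2 difference between iPSCs and MEFs was 2.53 (SE 0.44, adjusted p = 5.2e-05), and 2.05 to 2.90 with 1 library left out. Its iPSC reads, the highest, also helped it through the filter on low counts. With no such filter the difference was 2.37 (SE 0.45, adjusted p = 0.00015). It passed within 5000 bp (2.13, adjusted p = 2.8e-06) and within 500 bp (2.74, adjusted p = 0.035), where the filter kept only this 1 gene of the set. DESeq2 gave 2.53 with an adjusted p of 0.066. Pre-iPSCs against MEFs gave 1.23 (SE 0.53, adjusted p = 0.15) within 1000 bp and 1.50 (SE 0.25, adjusted p = 0.00032) within 5000 bp. H3K9me3 reads there were 5 in the MEF library, 6 in that of pre-iPSCs and 17 in that of iPSCs, or 0.164, 0.187 and 0.563 RPKM, in 1 library each and without a test.

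H3K4me3 at Ccnd2 showed no such order. Reads were 44 and 53 in MEFs, while pre-iPSCs had 48 and 43 and iPSCs 51 and 43, and the values of all cell types overlapped.

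Ccnd1 and Ccnd3 had other patterns. Ccnd1 was at 68.5 and 68.5 FPKM in MEFs, against 152 and 76.8 in pre-iPSCs, and iPSCs had 30.7 and 36.2, without overlap between cell types. The difference between iPSCs and pre-iPSCs was -1.67 (SE 0.41, adjusted p = 0.052). It passed with a pseudocount of 0.1 (-1.69, adjusted p = 0.048) and with no term for the table. It did not pass with quantile normalization, with no filter on low values or with a mean of at least 2 FPKM, and with 1 library left out it depended on which. The H3K4me3 reads of Ccnd1 were 78 and 58 in MEFs, while pre-iPSCs had 35 and 43 and iPSCs 44 and 47, with no call. Ccnd3 was at 72.5 and 53.1 FPKM in MEFs, against 60.5 and 48.5 in pre-iPSCs, and iPSCs had 68.8 and 60.0, and all cell types overlapped. The start listed for Ccnd3 lies 88416 bp upstream of its second start, and neither start passed for H3K4me3 within 1000 bp.

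These values give the makeup of the D-type cyclins in each library. Ccnd2 made up 50.3% and 59.2% of the summed FPKM of the D-type cyclins in MEFs, where pre-iPSCs had 10.1% and 12.5% and iPSCs 3.30% and 9.19%. Ccnd1 held the most in pre-iPSCs, 64.3% and 53.6%, and Ccnd3 in iPSCs, 66.8% and 56.6%. The sum itself was 284 and 298 FPKM in MEFs, while pre-iPSCs had 236 and 143 and iPSCs 103 and 106. It was not rescaled for the unlike FPKM totals of the libraries.

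Ccne1, which encodes cyclin E1, was at 49.1 and 16.9 FPKM in MEFs, against 49.7 and 14.2 in pre-iPSCs, and iPSCs had 89.1 and 72.6. Both iPSC libraries exceeded the other 4, and in every cell type replicate 1 was above replicate 2. It was higher in iPSCs than in MEFs, with a log2 difference of 1.44 (SE 0.44, adjusted p = 0.048), just inside the threshold. The call was lost without iPSC replicate 2 (0.78, adjusted p = 0.25), without pre-iPSC replicate 1 or 2 (adjusted p = 0.068 or 0.070), with no filter on low values (adjusted p = 0.083) and with no term for the table (adjusted p = 0.15). Against pre-iPSCs the difference was 1.55 (SE 0.44, adjusted p = 0.076). Its H3K4me3 reads, 68 and 39 in MEFs, while pre-iPSCs had 34 and 35 and iPSCs 44 and 50, did not differ in the test.

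Rb1 (NM_009029, chromosome 14, minus strand, start at 73725598) was the lowest gene of the set in MEFs and iPSCs, and the 1 gene that passed on both sides of the pre-iPSC stage. It was at 5.29 and 4.93 FPKM in MEFs, against 19.5 and 17.9 in pre-iPSCs, and iPSCs had 3.31 and 4.54. Pre-iPSCs were higher than MEFs (log2 difference 1.69, SE 0.37, adjusted p = 0.021), and iPSCs were lower than pre-iPSCs (-2.01, SE 0.37, adjusted p = 0.018). With 1 library of pre-iPSCs left out the first was 1.56 or 1.82 (adjusted p = 0.25 or 0.17), with no filter on low values it missed the threshold (1.69, adjusted p = 0.05), and without any 1 of the pre-iPSC or iPSC libraries the second was -1.78 to -2.25 (adjusted p = 0.097 to 0.19). H3K4me3 reads at its start were 50 and 48 in MEFs, while pre-iPSCs had 36 and 34 and iPSCs 25 and 25. They did not overlap, and the difference between iPSCs and MEFs was -0.67 (SE 0.27, adjusted p = 0.087), which passed with library sizes fixed at the unique reads (-1.01, adjusted p = 0.025). The same H3K4me3 difference was -0.50 (adjusted p = 0.58) within 500 bp, -0.16 (adjusted p = 0.54) within 5000 bp and -0.67 (adjusted p = 0.48) in DESeq2. By reads within 1000 bp the RNA and H3K4me3 orders of the cell types differed at Rb1, but no H3K4me3 difference passed in the main fit.

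**Figure D4:**
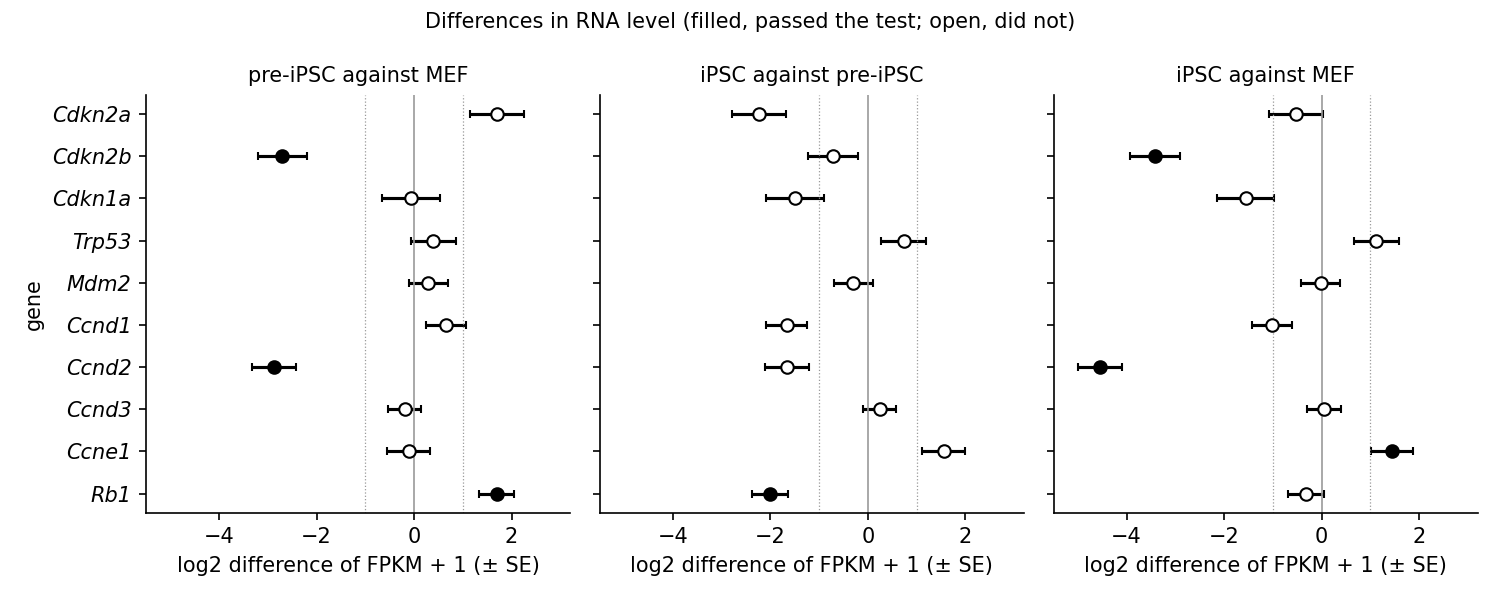
Log2 difference of FPKM + 1 with its SE for the 10 genes in each comparison of cell types, filled where the gene passed the test and open where it did not. Dotted lines mark 2-fold. Ccnd2 and Cdkn2b lie furthest to the left in both comparisons with MEFs, at -4.54 and -3.42 for iPSCs.

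FPKM is scaled for transcript length, so the genes can be ordered by level within a cell type. In MEFs the order by mean was Cdkn1a (451 ± 285 FPKM, SD, n = 2), Ccnd2 (160 ± 24.0), Trp53 (131 ± 2.96), Ccnd1 (68.5 ± 0.014), Cdkn2b (67.6 ± 38.7), Ccnd3 (62.8 ± 13.8), Mdm2 (50.0 ± 21.9), Cdkn2a (45.6 ± 30.6), Ccne1 (33.0 ± 22.8) and Rb1 (5.11 ± 0.255), and from Ccnd1 to Ccne1 each neighbour lay within the spread of the next. In pre-iPSCs Cdkn1a led (388 ± 64.6), followed by Trp53 (187 ± 103), Cdkn2a (138 ± 48.4) and Ccnd1 (114 ± 53.3), which overlapped one another, and Cdkn2b was last (9.06 ± 4.01). In iPSCs Trp53 led (312 ± 172), followed by Cdkn1a (142 ± 57.0) and Ccne1 (80.9 ± 11.6), and Ccnd2 (6.56 ± 4.48), Cdkn2b (4.90 ± 0.801) and Rb1 (3.92 ± 0.876) were last and not separated.

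The marks were also counted as present or absent. With a mark counted as present above 1 RPKM within 500 bp of the listed start, H3K4me3 was present in 40 of 60 pairs of gene and library (66.7%), beside 42.3% of such pairs over all genes, and H3K27me3 in 0, beside 2.11%. At 2 RPKM the H3K4me3 count was 4 of 60 (6.67%), beside 7.5%, so its share stands above the background at the lower threshold and not at the higher. The pairs repeat the same genes over libraries, and the background holds 4596 to 6150 genes per library at 0 FPKM. All 10 genes were above 0 FPKM in every library, and the part of RNA level in these shares was not tested. Trp53 carried H3K4me3 in all 6 libraries, Cdkn2a, Ccnd1 and Ccnd2 in 5, Cdkn1a in the 2 pre-iPSC libraries alone and Rb1 in 1. No gene of the set passed for H3K4me3 between iPSCs and pre-iPSCs (0.00% of all promoters) or between iPSCs and MEFs (13.7%, with 9.74% higher and 4.01% lower). The same held for H3K27me3 between pre-iPSCs and MEFs (8.10%, with 5.01% higher and 3.09% lower) and between iPSCs and pre-iPSCs (0.798%, with 0.663% higher and 0.135% lower). The direction of H3K4me3 calls over all promoters turns with the scaling: 1724 higher and 709 lower between iPSCs and MEFs became 841 and 2356 with library sizes fixed at the unique reads, and 540 and 141 between pre-iPSCs and MEFs became 232 and 1121, as the median of all promoters moved from -0.03 to -0.37 and from -0.01 to -0.39.

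**Figure D5:**
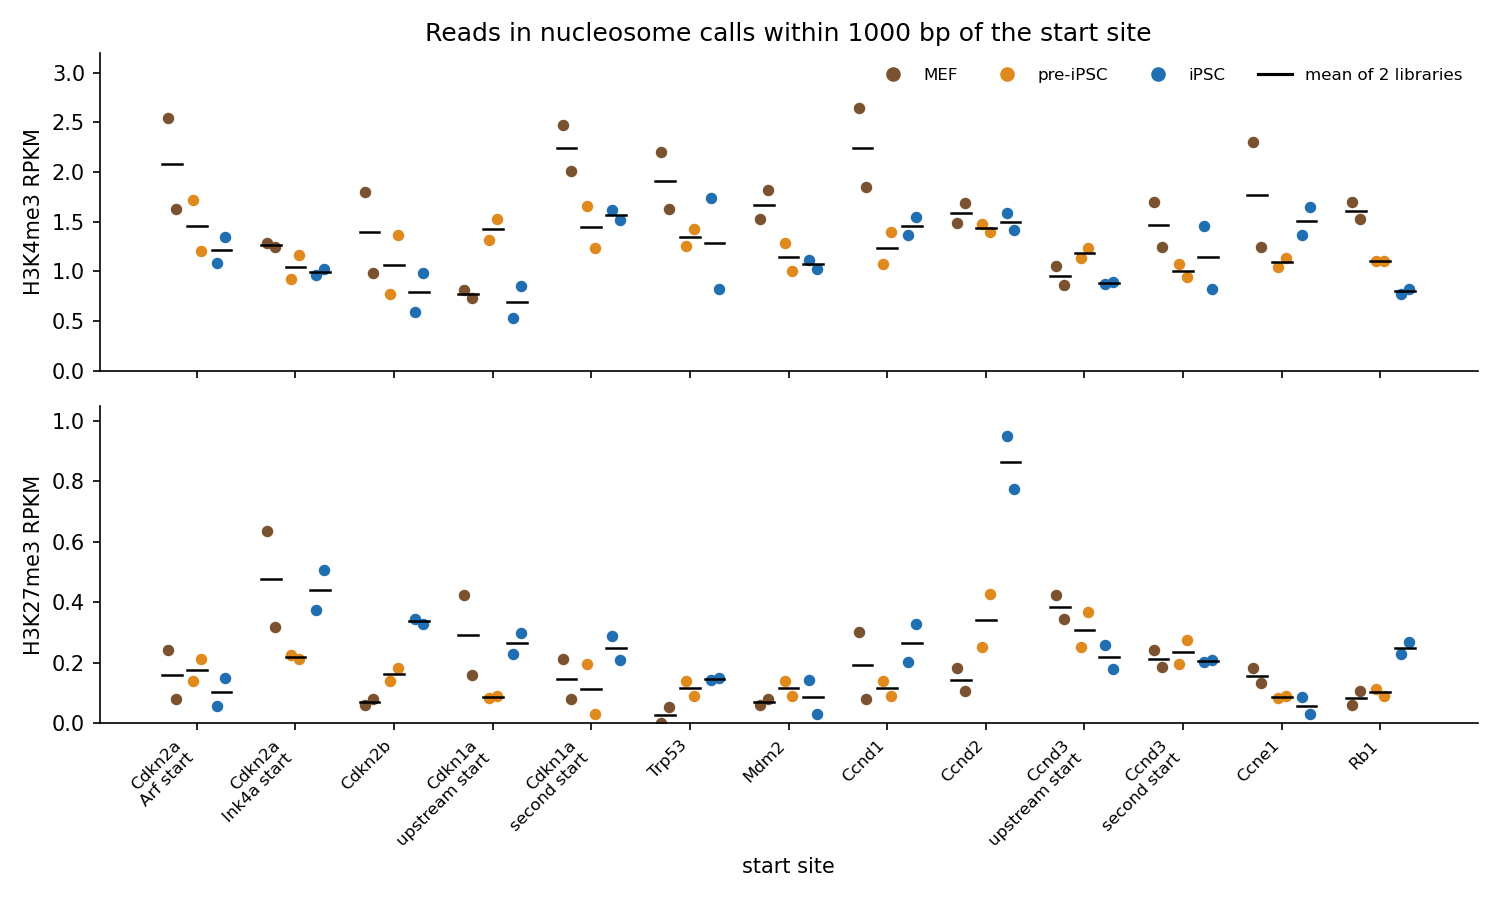
H3K4me3 (top) and H3K27me3 (bottom) in RPKM within 1000 bp of each start site, 1 point per library coloured by cell type, with black bars at the mean of 2 libraries. Ccnd2 stands out for H3K27me3 in iPSCs, at 0.951 and 0.776 RPKM. At the upstream Cdkn1a start H3K4me3 in pre-iPSCs, at 1.32 and 1.53 RPKM, lies above the MEF and iPSC values of that start, but not above the level of other genes.

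The H3 reads could not be compared between cell types. In edgeR 0.00% of 19560 promoters passed in each comparison (373, 105 and 296 at an unadjusted p below 0.05, and 0 in DESeq2), but on data simulated for iPSCs against MEFs the test recovered no planted change, so the lack of calls does not show that H3 was alike. Without pre-iPSC replicate 2, 4589 and 2146 promoters passed in the comparisons with pre-iPSCs. Among the 10 genes only Cdkn1a had an unadjusted p below 0.05, in 2 comparisons. The libraries of 1 cell type differed widely: at Ccnd2 H3 reads were 21 and 47 in MEFs, against 203 and 19 in pre-iPSCs, and iPSCs had 170 and 40. Pre-iPSC replicates 1 and 2 had medians over all genes of 143 and 37 H3 reads, from 108211816 and 67362868 reads in calls. MEFs were digested with another amount of MNase and for another time than the reprogrammed cells, which cannot be told apart from the cell type. By the study's methods such mononucleosomes went into the immunoprecipitation with every antibody. The same limit therefore holds for H3K4me3, H3K27me3 and H3K9me3 in each comparison with MEFs.

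The wider pathway was described by 4 lists. They also hold genes followed above: Ccnd1, Ccnd2, Ccnd3, Ccne1, Rb1, Cdkn1a, Mdm2 and Trp53. The calls of Ccnd2, Ccne1 and Rb1 are thus counted again in the lists. Counts stand beside the shares of all genes that passed. These shares were 25.9% between iPSCs and MEFs, 16.4% between pre-iPSCs and MEFs and 8.62% between iPSCs and pre-iPSCs. Of 41 genes of the G1/S machinery 11 passed between iPSCs and MEFs, near the background of 25.9%, with 8 higher and 3 lower. The median log2 difference was 0.44 beside -0.14 over all genes. The largest rises were those of Mcm5, Mcm3 and Mcm7, subunits of the replicative helicase, of which Mcm5 went from 28.7 and 13.7 FPKM in MEFs to 159 and 76.9 in iPSCs (log2 difference 2.42, SE 0.34, adjusted p = 0.0032). Beside Ccnd2, the inhibitor genes Cdkn2c (p18Ink4c) and Cdkn1c (p57Kip2) fell, from 3.18 and 8.20 to 0.632 and 0.538 FPKM (-1.97, adjusted p = 0.012) and from 14.2 and 23.2 to 6.61 and 2.97 FPKM (-1.80, adjusted p = 0.037). The fibroblast markers fell with them, and their part was not tested. In pre-iPSCs against MEFs 7 of 41 passed (beside 16.4%), 5 higher and 2 lower, and in iPSCs against pre-iPSCs 3 (beside 8.62%), 1 higher and 2 lower, both near the background.

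Of 32 p53 targets 11 passed between iPSCs and MEFs, 4 higher and 7 lower, with a median of -0.26. Bbc3, which encodes the death protein PUMA, rose from 6.40 and 3.93 to 30.4 and 26.3 FPKM (2.28, SE 0.34, adjusted p = 0.0043), with 43.9 and 42.2 in pre-iPSCs. Sfn, the gene of 14-3-3 sigma, was at 6.85 and 0.762 FPKM in MEFs, while pre-iPSCs had 128 and 84.0 and iPSCs 16.2 and 20.9 (iPSCs against MEFs 2.38, adjusted p = 0.022), and Sesn2, a stress-induced sestrin, rose as well (2.04, adjusted p = 0.034). Among the falls, Thbs1, which encodes a secreted matrix protein that is abundant in fibroblasts, was at 1658 and 607 FPKM in MEFs and 9.88 and 32.8 in iPSCs (-5.71, SE 0.71, adjusted p = 0.0022), and Plk2 fell as well (-2.18, adjusted p = 0.039). The fibroblast markers moved with these falls, and their part was not tested. Of the 32 genes 7 passed between pre-iPSCs and MEFs (beside 16.4%), 3 higher and 4 lower, and 2 between iPSCs and pre-iPSCs (beside 8.62%), both lower.

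Of 18 genes of the p53 family and its regulators 17 were tested and 5 passed between iPSCs and MEFs, 4 higher and 1 lower, with a median of 0.82. Sirt1, a deacetylase that acts on p53, went from 6.38 and 2.13 to 16.8 and 22.8 FPKM (2.10, SE 0.47, adjusted p = 0.017). The checkpoint kinase genes Chek2 (1.81, adjusted p = 0.010) and Chek1 (1.74, adjusted p = 0.029) rose, and Rfwd2, which encodes a ubiquitin ligase of p53, fell (-1.17, adjusted p = 0.043). Between pre-iPSCs and MEFs 1 of the 17 passed (beside 16.4%), higher, and between iPSCs and pre-iPSCs 0 (beside 8.62%).

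Of 26 regulators of Ink4/Arf 14 passed between iPSCs and MEFs, 5 higher and 9 lower, with a median of 0.55. Cbx7, a Polycomb protein that binds H3K27me3, was at 0.866 and 0.509 FPKM in MEFs, against 3.47 and 5.10 in pre-iPSCs, and iPSCs had 52.7 and 49.5 (4.96, SE 0.38, adjusted p = 0.00073). Phc1, another Polycomb subunit, rose by 3.41 (adjusted p = 0.0022) and Cdc6, a licensing factor, by 1.58 (adjusted p = 0.029). Hmga2, a chromatin protein known to repress Ink4/Arf, went from 269 and 173 to 13.4 and 10.9 FPKM (-4.05, SE 0.40, adjusted p = 0.0012). The transcription factor genes Twist1 (-3.17, adjusted p = 0.0032) and Ets1 (-2.90, adjusted p = 0.011) fell too. These falls came beside that of the fibroblast markers to 5.33% of the MEF level, whose part in them was not tested. Between pre-iPSCs and MEFs 5 of 26 passed (beside 16.4%), 2 higher and 3 lower, and between iPSCs and pre-iPSCs 5 (beside 8.62%), 2 higher and 3 lower. Over all lists 47 of 112 genes tested passed in at least 1 comparison, beside 32.3% of all 12401 genes.

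The genes most like Cdkn2a, Cdkn1a and Ccnd1 were sought by Pearson correlation of log2(FPKM + 1) over the 6 libraries, among 10171 genes whose highest and lowest library differed by at least 1. For Cdkn2a these were B930041F14Rik, Rnaset2a and Crip1 (r of 0.998, 0.995 and 0.992), for Cdkn1a Tmem147, Cdc42ep2 and Rabl5 (0.994, 0.994 and 0.992) and for Ccnd1 Heph, Rnf13 and 6430548M08Rik (0.99, 0.978 and 0.977). Crip1, for example, was at 90.7 and 403 FPKM in MEFs, while pre-iPSCs had 867 and 1632 and iPSCs 137 and 88.2. With 6 libraries of 3 cell types and so many genes searched, such values describe the order of libraries.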

How the data were processed

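Nucleosomes of MEFs, pre-iPSCs and iPSCs were sequenced after immunoprecipitation of H3, H3K4me3, H3K27me3 or H3K9me3 (21 libraries), and RNA in 6 libraries. Reads were mapped by the authors with Bowtie (1.0.1) to mm9, unique reads were retained, and GeneTrack called nucleosomes per library. Each deposited call has a read count and a fuzziness score, the spread of its reads in bp. The authors computed the deposited FPKM with TopHat2 (2.0.4) and Cufflinks (2.0.2) for 20156 RefSeq genes, in 2 tables that hold replicates 1 and 2. Whether the RNA libraries kept strand is not given in the sources used here.

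Reads of calls were summed within 1000 bp of each start site, at the dyad, and compared over all promoters by the quasi-likelihood test of edgeR 4.0.16, after filterByExpr and TMM. RPKM was scaled to the unique reads that the study lists per library. Genes averaging 0.5 FPKM or more were compared by limma 3.58.1 (trend) after log2(FPKM + 1), a scale that understates changes of low genes, and the table, which is also the replicate number, was a term of the fit. Adjusted p-values are Benjamini-Hochberg over all features of a comparison. An exact permutation test of 2 against 2 libraries cannot go below 0.33. H3K9me3 has no replicates. Poisson intervals cover counting error only. Second start sites come from GENCODE transcripts and sequences from the mm9 genome. With 1 library of a cell type left out, the remaining one was assumed to vary like the other groups. Tests were checked with R 4.3.3 on data simulated for iPSCs against MEFs, with 200 planted changes of 4-fold in each. For expression, planted only in genes of higher level, 123 were recovered. For H3K4me3 176 were recovered, for H3K27me3 159 and for H3 0. Smaller changes were not planted, so how often they are missed is not known. DESeq2 1.42.0 was an alternative. The 10 genes, the lists and the tests were chosen with earlier results of these data known. Genes are named by a rule: the 10 genes, the 3 largest rises and falls between iPSCs and MEFs among genes of each list that passed, the 3 genes most like Cdkn2a, Cdkn1a and Ccnd1, and the markers. One gene that this rule names is not reported here.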

Additional observations from a re-analysis of the deposited data

How the results depend on the processing

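The values below count how many of the 10 genes passed, with the share of all features that passed under the same setting in brackets, and the cause of each change was not tested. For expression between iPSCs and pre-iPSCs, 1 gene (8.62%) became 3 with a pseudocount of 0.1 (8.83%), 3 with quantile normalization (9.64%) and 2 with a mean of at least 2 FPKM (7.52%). Leaving out 1 library gave 1 to 4 genes between pre-iPSCs and MEFs (8.65% to 23.5%), 0 to 6 between iPSCs and pre-iPSCs (0.706% to 18.4%) and 1 to 5 between iPSCs and MEFs (9.09% to 30.0%). The 6, which passed without MEF replicate 1 (17.8%) and without MEF replicate 2 (18.4%), were Cdkn2a, Cdkn1a, Ccnd1, Ccnd2, Ccne1 and Rb1. Over all genes, no filter on low values gave 1244, 788 and 2371 calls in place of 2032, 1069 and 3206, and 29 in place of 47 genes of the lists, which ranged from 19 to 61 with 1 library left out. H3K4me3 between pre-iPSCs and MEFs gave 0 genes in place of 1 in DESeq2 (0.175%), with fixed library sizes (7.64%), at the second start sites (3.84%) and within 5000 bp of the listed or second start sites (2550 of 19610 promoters each), and 0 to 1 with 1 library left out (0.535% to 4.95%). H3K4me3 between iPSCs and MEFs gave 1 gene with fixed sizes (18.1%), 2 within 5000 bp (27.3%) and 1 at the second start sites within 5000 bp (27.3%), and between iPSCs and pre-iPSCs 0 to 1 with 1 library left out, the 1 without iPSC replicate 2 (0.382%). H3K27me3 between pre-iPSCs and MEFs gave 3 genes within 5000 bp, for listed and second start sites alike (14.6%), and 0 to 1 with 1 library left out, the 1 without MEF replicate 2 (4.27%). Between iPSCs and MEFs it gave 0 in DESeq2 (0.183%), 1 of the 1 gene tested within 500 bp (3.94%) and with calls of at least 2 reads (7.81%), 1 within 5000 bp (21.4%) and 1 without each library in turn (3.95% to 9.53%). H3 gave 0 to 1 in the comparisons with pre-iPSCs, the 1 without pre-iPSC replicate 2 (23.4% and 11.0%). DESeq2 called 31, 0 and 119 promoters for H3K4me3 in place of 681, 0 and 2433, and 45, 0 and 19 for H3K27me3 in place of 843, 83 and 1167. The mean H3K9me3 level over the 10 start sites in pre-iPSCs was 0.263 RPKM within 5000 bp (0.15 within 1000 bp), H3K4me3 was present in 4 of 60 pairs at 2 RPKM (40 at 1 RPKM), and H3K27me3 in 1 when scaled to the reads in calls.

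Signs were followed for all expression differences and for ChIP differences with an unadjusted p below 0.05. Those that changed sign had not passed in the main fit, except H3K4me3 of Cdkn1a. With quantile normalization these were Cdkn1a (0.68), Ccnd3 (0.12) and Ccne1 (0.05) between pre-iPSCs and MEFs and Mdm2 (0.37) between iPSCs and MEFs. With 1 library left out the ranges were -0.88 to 0.75 for Cdkn1a, -0.18 to 0.96 for Trp53, -0.21 to 0.79 for Mdm2 and -0.54 to 0.32 for Ccne1 between pre-iPSCs and MEFs. They were -1.51 to 0.07 for Cdkn2b and -0.64 to 0.04 for Mdm2 between iPSCs and pre-iPSCs, and -1.51 to 0.46 for Cdkn2a, -0.52 to 0.49 for Mdm2 and -0.05 to 0.14 for Ccnd3 between iPSCs and MEFs. Cdkn1a had an H3 difference between pre-iPSCs and MEFs of 0.05 within 5000 bp and 0.07 within 5000 bp of the second start, an H3K27me3 difference of 0.03 within 5000 bp, and within 1000 bp of the second start H3K4me3 differences of -0.25 against MEFs and 0.08 for iPSCs against pre-iPSCs. Ccnd3 had -0.15 for H3K4me3 at its second start between pre-iPSCs and MEFs. Over all ChIP differences of the 10 genes, whatever their p, 10 of 30 for H3K4me3, 4 of 15 for H3K27me3 and 14 of 30 for H3 changed sign from 1000 to 5000 bp, and 0 of these had passed in either window. Second start sites were added after the data were seen.

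The expression fit has the replicate number as a block, since the 2 tables hold replicates 1 and 2. In the ChIP tests numbers were not taken to pair the libraries, as neither labels nor methods tie a library to its clone. For pre-iPSCs with MEFs, iPSCs with pre-iPSCs and iPSCs with MEFs, correlations of same-numbered deviations from the cell type means were 0.346, 0.112 and -0.205 for expression, -0.0315, 0.794 and 0.0073 for H3, -0.0533, 0.115 and -0.00167 for H3K4me3 and -0.0212, 0.0325 and -0.0427 for H3K27me3. Same-numbered pre-iPSC and iPSC libraries thus deviated together for H3, and a pairing of these cell types through their clones was not tested. With a replicate block H3 gave 0 calls in each comparison. With no replicate block, expression gave 3, 3 and 2 genes (16.1%, 9.06% and 24.2%) in place of 3, 1 and 3 (16.4%, 8.62% and 25.9%), with Cdkn2a and Ccnd1 gained between iPSCs and pre-iPSCs and Ccne1 lost between iPSCs and MEFs. For H3K4me3 the Cdkn1a difference was 1.25 (edgeR, adjusted p = 0.0074) with a replicate block, and for H3K27me3 those of Ccnd2 and Cdkn2b were 2.52 and 2.15 (adjusted p = 0.00024 and 0.034), so these calls were kept.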
